A study of Mus musculus with 8 samples.

Results

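Thioredoxin and its reductase, the peroxiredoxins and sulfiredoxin form one chain that removes hydrogen peroxide. The 9 genes described here are Txn1, Txnrd1, Prdx1 to Prdx6 and Srxn1. They were chosen by symbol, and all 9 were found among the 54427 genes of the table. The libraries come from primary pancreatic acinar cells of wild-type mice (genotype WT), freshly isolated with collagenase and injured for 6 h with the octapeptide of cholecystokinin (CCK) at 1 µM. This gut hormone makes acinar cells secrete and, in excess, damages them. By their titles, 4 libraries named AP had the injury alone and 4 named AP_OCA had OCA in addition. OCA commonly stands for obeticholic acid, which activates the nuclear receptor FXR. The labels state 2.5 µM OCA in a treatment text that is the same for all 8 samples, so the reading that AP had no OCA rests on the titles. Every library carries CCK and there is no uninjured group, so none of the values below shows what CCK itself did. The labels do not say whether replicates came from separate mice, and every p-value measures the spread between these samples, which may be technical.

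In this chain peroxiredoxins reduce peroxide with a reactive cysteine, and thioredoxin reduces many spent peroxiredoxins, though Prdx6 uses glutathione. Thioredoxin reductase, a selenoprotein, recharges thioredoxin with electrons from NADPH. Sulfiredoxin rescues peroxiredoxins whose cysteine has been oxidised too far. Prdx1, Prdx2 and Prdx6 encode mainly cytosolic enzymes, Prdx3 a mitochondrial one, Prdx5 one found in mitochondria, peroxisomes and cytosol, and Prdx4 one of the endoplasmic reticulum (ER). Acinar cells make large amounts of disulfide-bonded enzymes, and ER oxidative folding releases peroxide. Txnrd1, Srxn1 and Prdx1 are textbook targets of NRF2, the transcription factor that binds antioxidant response elements.

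The promoters of 8 of the 9 members were in the RefSeq table for GRCm38.p6, the same build as mm10, and that of Prdx6 was not listed there. 3 are shown because they belong to the member that passed the test without AP_OCA replicate 2 (Txn1), to the member next to it in p (Prdx1), and to the member with the largest gap between AP_OCA replicate 2 and the other libraries (Srxn1). Each is written 5′ to 3′ on the gene's strand, from 250 bases before the RefSeq start site down to the first base annotated as transcribed. Capitals mark matches, on either strand, to the antioxidant response element core TGACNNNGC or to the AP-1 site TGANTCA.
Txn1, minus strand, chr4:57956412-57956661: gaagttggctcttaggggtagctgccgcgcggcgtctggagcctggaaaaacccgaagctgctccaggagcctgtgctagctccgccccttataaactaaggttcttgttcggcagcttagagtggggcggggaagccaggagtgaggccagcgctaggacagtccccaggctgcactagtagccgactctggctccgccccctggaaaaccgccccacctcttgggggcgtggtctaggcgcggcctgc
Prdx1, plus strand, chr4:116685349-116685543: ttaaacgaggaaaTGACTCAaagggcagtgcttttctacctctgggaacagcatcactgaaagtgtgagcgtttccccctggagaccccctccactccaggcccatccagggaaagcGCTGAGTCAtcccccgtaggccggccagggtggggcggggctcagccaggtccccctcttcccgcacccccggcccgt
Srxn1, plus strand, chr2:152105274-152105515: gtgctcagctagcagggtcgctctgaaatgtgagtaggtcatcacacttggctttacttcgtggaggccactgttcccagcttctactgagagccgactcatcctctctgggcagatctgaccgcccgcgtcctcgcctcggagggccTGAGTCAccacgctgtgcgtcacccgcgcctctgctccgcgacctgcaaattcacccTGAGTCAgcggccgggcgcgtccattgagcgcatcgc
Positions count from the start site. In Prdx1 the match GCTGAGTCA at -133 is an antioxidant response element core that overlaps an AP-1 site, and a further AP-1 site is at -237. Srxn1 has AP-1 sites at -102 and -45, and a match to the antioxidant core at 28, past the printed stretch. One of the 3 listed promoters of Txnrd1 (chr10:82858956-82859255) has the antioxidant core GCTTTGTCA at -92. Among all 32851 promoters of this length, 12.4% held the antioxidant core and 7.81% the AP-1 site. The letters of neither motif are in the windows of Txn1, Prdx2, Prdx3, Prdx4 or Prdx5. The consensus FXR element, an inverted repeat searched without mismatches on both strands, is in the window of none of the 8 members and in 0.00913% of all promoters.

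Levels are given in CPM, parts in 1000000 of a library's summed values after the deposited log2 values were taken back to the linear scale. All libraries have the same highest value and nearly the same sum, as after quantile normalisation, so a CPM is closer to a rank than to a share of reads, and read totals are unknown here. Low values differed in AP_OCA replicate 2, which had 21010 genes above 0 against 15394 to 16640 elsewhere. There, the third lowest step of value stood at 0.000455 CPM, against 0.206 to 0.313 CPM in the other 7 libraries. Prdx3, the lowest member, stood at 10.5 to 23.8 CPM in those 7, where between 91 and 149 distinct steps of value lay up to 10 CPM (442 in AP_OCA replicate 2). AP_OCA replicate 2 stood apart from the other 7 libraries and is shown apart throughout. Its summed lymphocyte markers, led by Igkc and Ighm, came to 3647 CPM against 2.13 to 38.2 elsewhere, with all 12 markers more than 2-fold above every other library. Its macrophage and myeloid markers, led by Lyz2 and C1qa, came to 1285 CPM against 65.1 to 153. Its islet markers, led by Ins2 and Ins1, came to 8.97 CPM against 510 to 2156. The acinar markers, led by Ctrb1 and Pnlip, summed to 402187 CPM there and to 412813 to 465424 in the others, a sum carried by the most abundant enzyme genes. In AP_OCA replicate 2, 6 of the 14 acinar markers lay more than 2-fold below every other library. They include the acinar transcription factor genes Ptf1a (1.12 CPM against 17.4 to 34.5), Bhlha15 (5.05 against 63.1 to 120) and Rbpjl (5.44 against 71.6 to 107), the CCK receptor gene Cckar (3.18 against 37.0 to 50.9) and the amylase gene Amy2a5 (353 against 1770 to 2954). In bulk libraries, fewer cells of a type and less RNA per cell cannot be told apart.

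In AP, the members spread widely in level per length of transcript. Prdx4, the ER peroxiredoxin, had the highest level at 114 ± 11.8 CPM per kb (SD, n = 4). Txn1 followed at 61.2 ± 1.82 and Prdx1 at 55.7 ± 2.85, and the 4 AP values of each of these 3 genes did not overlap with those of the next. Srxn1 (37.5 ± 9.88), Prdx5 (29.8 ± 3.83) and Txnrd1 (23.99 ± 3.20) came next, with overlap between neighbours. Prdx2 (16.4 ± 2.49) and Prdx6 (14.9 ± 3.05) overlapped too, and the mitochondrial Prdx3 was lowest at 8.15 ± 1.01 CPM per kb. Lengths are medians over each gene's protein-coding GENCODE transcripts, from 661 nt for Prdx1 to 3325 nt for Txnrd1.

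**Figure D1:**
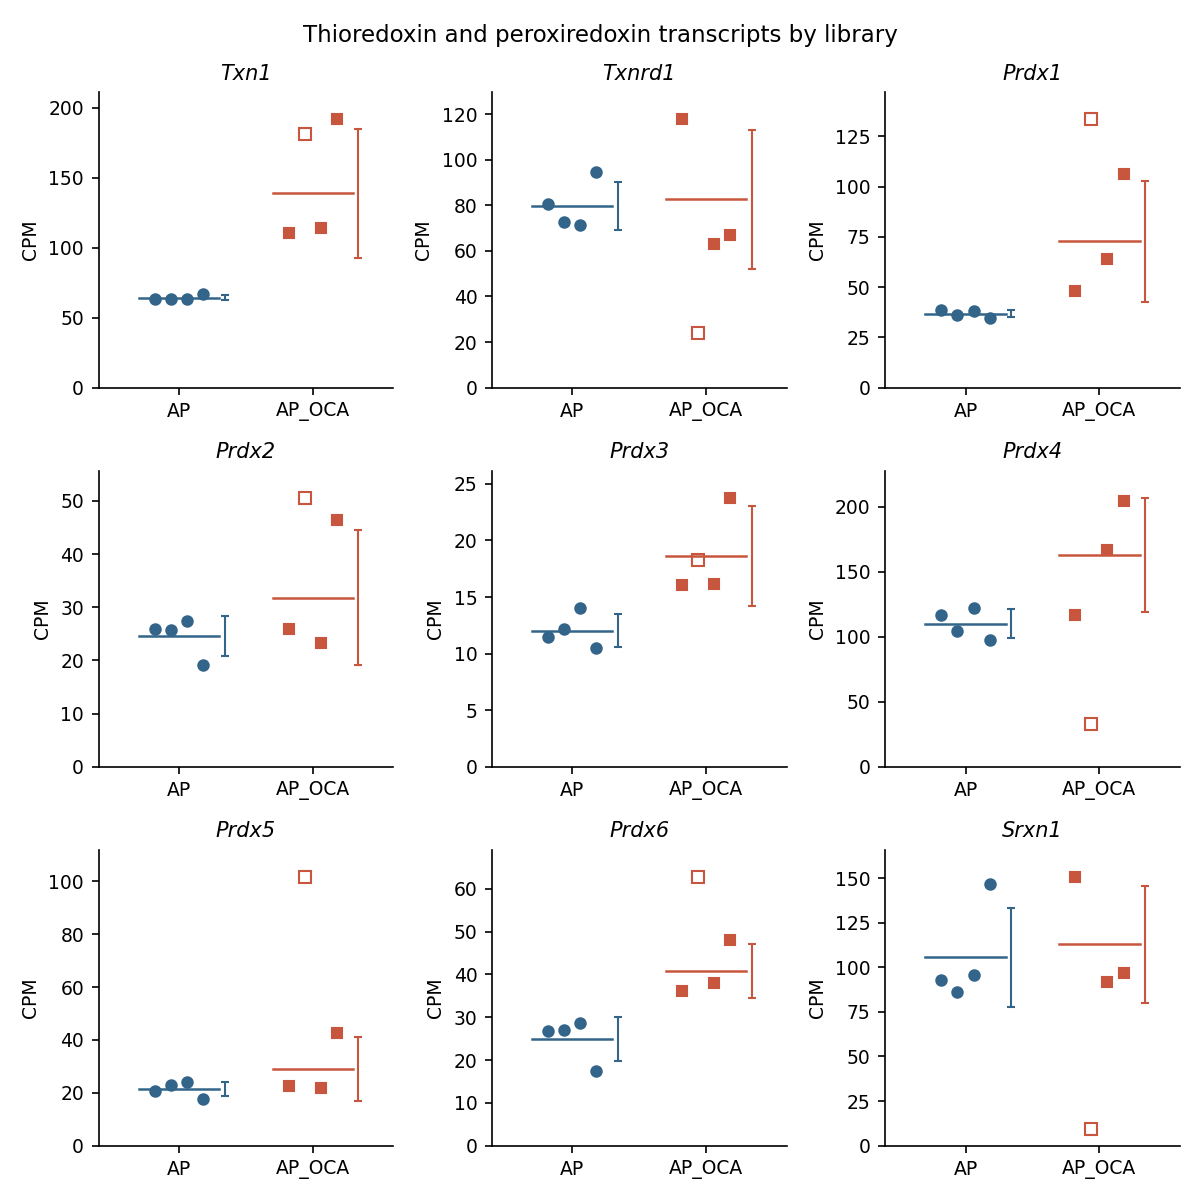
Level of each member in CPM (vertical axis, from 0) in the 4 AP libraries (circles) and the 4 AP_OCA libraries (squares), with AP_OCA replicate 2 as an open square. Lines are means and bars SDs over AP (n = 4) and over AP_OCA without replicate 2 (n = 3). Each filled and open square lies above each circle for Txn1, Prdx1, Prdx3 and Prdx6.

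Over all 8 libraries no member passed the test between AP_OCA and AP. Fold changes are on the log2(CPM + 1) scale, which understates those of low genes. Txn1 and Prdx1 had the largest log2 fold changes, 1.16 ± 0.26 and 1.12 ± 0.32 (SE), and Srxn1 the lowest, -0.77 ± 0.74. By limma on log2(CPM + 1), 0 of 9 members and 0% of 11311 tested genes passed at an adjusted p of 0.05. At an unadjusted p under 0.05 there were 4 members, Txn1, Prdx1, Prdx3 and Prdx6, and 1830 genes (16.2%). Limma with quality weights per library called 3 members and 1052 of the 11311 genes. That fit gave AP_OCA replicate 2 a weight of 0.063, against 0.46 to 2.67 for the other libraries, so that library counted for little. The 4 AP_OCA values lay above all 4 AP values for 4 of 9 members (Txn1, Prdx1, Prdx3 and Prdx6) and below them for 0. The same held for 6.75% of tested genes on the higher side and 8.57% on the lower side. Of the 9 fold changes 6 were above 0, with a median of 0.58, against 49.1% and -0.01 over all tested genes.

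Without AP_OCA replicate 2, Txn1 rose about 2-fold and was the one member that passed. Prdx1 and Prdx6 had log2 fold changes of 0.89 ± 0.23 and 0.70 ± 0.20 and did not pass (limma adjusted p = 0.0524 and 0.0683). Txnrd1 and Srxn1 lay near 0. By limma 1 of 9 members was called, beside 2.44% of 10894 genes in either direction 0.854% on the higher side and 1.59% on the lower side. That count rested on all 4 AP libraries and on AP_OCA replicate 3. Leaving out any 1 AP library left 7 to 12 genes and 0 members called. Leaving out AP_OCA replicate 3 likewise left few genes and no member called. AP_OCA values lay above all AP values for 4 of 9 members and below them for 0, beside 11.1% and 12.1% of tested genes. At an unadjusted p under 0.05 there were 5 members (Txn1, Prdx1, Prdx3, Prdx4 and Prdx6), beside 25.7% of tested genes. All 9 log2 fold changes were above 0, the smallest at 0.00063, with a median of 0.53, where 50% of all tested genes were above 0 and their median was 0.00.

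Txn1 encodes cytosolic thioredoxin, an electron donor of cytosolic peroxiredoxins such as Prdx1, and lies on chromosome 4 (57943373 to 57956411, minus strand, mm10). Its level was 63.7, 63.4, 63.0 and 67.1 CPM in AP replicates 1 to 4, and 110, 114 and 192 CPM in AP_OCA replicates 1, 3 and 4, with 181 CPM in AP_OCA replicate 2. The 4 AP libraries lay within a few CPM of each other and each AP_OCA library was above them, with replicates 2 and 4 the highest. The log2 fold change was 1.05 ± 0.20 without AP_OCA replicate 2 (limma adjusted p = 0.0271, higher in 3 of 3 libraries) and 1.16 ± 0.26 with it (limma adjusted p = 0.260). The call was lost when any 1 AP library or AP_OCA replicate 3 was also left out (limma adjusted p from 0.0592 to 0.0933, log2 fold changes from 1.04 to 1.17). It was kept without AP_OCA replicate 4 (0.79) and without AP_OCA replicate 1 (1.19). It was lost with no filter on low values, or with limma's mean-variance trend and robust moderation both off (limma adjusted p = 0.182 and 0.0713).

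Txnrd1 encodes the cytosolic thioredoxin reductase and lies on chromosome 10 (82833951 to 82897712). It stood at 80.5, 72.8, 71.2 and 94.5 CPM in AP and at 118, 63.1 and 66.9 CPM in AP_OCA replicates 1, 3 and 4. AP_OCA replicate 1 was above every AP library, and replicates 3 and 4 were below every AP library. AP_OCA replicate 2 was lowest at 23.8 CPM. Its fold change on the log2 scale was 0.00 without replicate 2, with a 95% interval from -0.47 to 0.47, and -0.42 ± 0.43 with it. The reductase transcript thus had no shared direction in the libraries in which Txn1 rose, although the difference between the 2 genes' fold changes was not tested.

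Among the typical peroxiredoxins that thioredoxin recharges, Prdx1 had the largest fold change. Prdx1 lies on chromosome 4 (116685544 to 116700822). Its values were 38.7, 35.9, 38.0 and 34.6 CPM in AP and 48.2, 63.9 and 106 CPM in AP_OCA replicates 1, 3 and 4, with 134 CPM in replicate 2. The groups did not overlap, and the AP_OCA libraries spread far more than the AP libraries (coefficients of variation 41.3% without replicate 2 and 5.12%). A log2 fold change of 0.89 ± 0.23 had a limma adjusted p of 0.0524, and it was 1.12 ± 0.32 over 8 libraries (limma adjusted p = 0.260). Without AP_OCA replicate 4 as well it was 0.58, and without AP_OCA replicate 1 it was 1.14 and passed (limma adjusted p = 0.0164).

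Prdx2, on chromosome 8 (84969587 to 84974834), encodes the other abundant cytosolic member of this type. It stood at 25.8, 25.8, 27.5 and 19.1 CPM in AP and at 25.8, 23.2 and 46.4 CPM in AP_OCA replicates 1, 3 and 4, with 50.6 CPM in replicate 2. AP_OCA replicates 1 and 3 lay within the AP range and the other 2 above it. Its log2 fold change of 0.31 ± 0.24 became 0.01 without AP_OCA replicate 4. Prdx3, the mitochondrial enzyme on chromosome 19 (60864051 to 60874556), stood at 11.4, 12.1, 14.1 and 10.5 CPM in AP and at 16.0, 16.2 and 23.8 CPM in AP_OCA replicates 1, 3 and 4, with 18.3 CPM in replicate 2. Each AP_OCA library lay above each AP library. The log2 fold change of 0.58 ± 0.21 did not pass (limma adjusted p = 0.108) and had the same size over 8 libraries (0.58 ± 0.21, limma adjusted p = 0.265).

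Prdx4, the ER enzyme on chromosome X (155323918 to 155340754), was at 117, 104, 122 and 97.3 CPM in AP and at 117, 167 and 205 CPM in AP_OCA replicates 1, 3 and 4. AP_OCA replicate 1 lay inside the AP range and replicates 3 and 4 above it. AP_OCA replicate 2 was at 32.8 CPM, below every other library. The log2 fold change was 0.53 ± 0.20 without replicate 2 (limma adjusted p = 0.119) and -0.03 ± 0.51 with it, so its direction turned on that library. Leaving out AP_OCA replicate 1 also gave 0.75 (limma adjusted p = 0.0314).

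Prdx5, which reduces peroxides and peroxynitrite in several compartments, lies on chromosome 19 (6906697 to 6910106). Its values were 20.8, 22.8, 24.1 and 17.8 CPM in AP and 22.5, 21.8 and 42.8 CPM in AP_OCA replicates 1, 3 and 4. AP_OCA replicate 2 reached 102 CPM, 2.38-fold above the highest other library, and it was the one member to lie more than 2-fold above in that library. The log2 fold change was 0.36 ± 0.23 without replicate 2 and 0.82 ± 0.45 with it, and neither passed (limma adjusted p = 0.340 and 0.372). Without AP_OCA replicates 2 and 4 it was 0.05. Prdx6, the single-cysteine peroxiredoxin that uses glutathione and also has phospholipase activity, lies on chromosome 1 (161240112 to 161251219). It stood at 26.9, 27.1, 28.6 and 17.4 CPM in AP and at 36.2, 38.1 and 48.0 CPM in AP_OCA replicates 1, 3 and 4, with 62.8 CPM in replicate 2. The groups did not overlap. For Prdx6 the log2 fold change was 0.70 ± 0.20 (limma adjusted p = 0.0683), and it stayed between 0.54 and 0.78 over the 7 further fits that each left out 1 library.

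Srxn1 encodes sulfiredoxin and lies on chromosome 2 (152105516 to 152111376). It stood at 93.2, 86.4, 95.9 and 147 CPM in AP and at 151, 91.6 and 96.6 CPM in AP_OCA replicates 1, 3 and 4. In each group 1 library stood well above the rest, AP replicate 4 and AP_OCA replicate 1. In AP_OCA replicate 2 it was at 9.26 CPM, 9.33-fold below the lowest other library. Without that library the log2 fold change was 0.09 ± 0.22, with a 95% interval from -0.39 to 0.57, and -0.77 ± 0.74 with it, where the interval ran from -2.44 to 0.91.

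**Figure D2:**
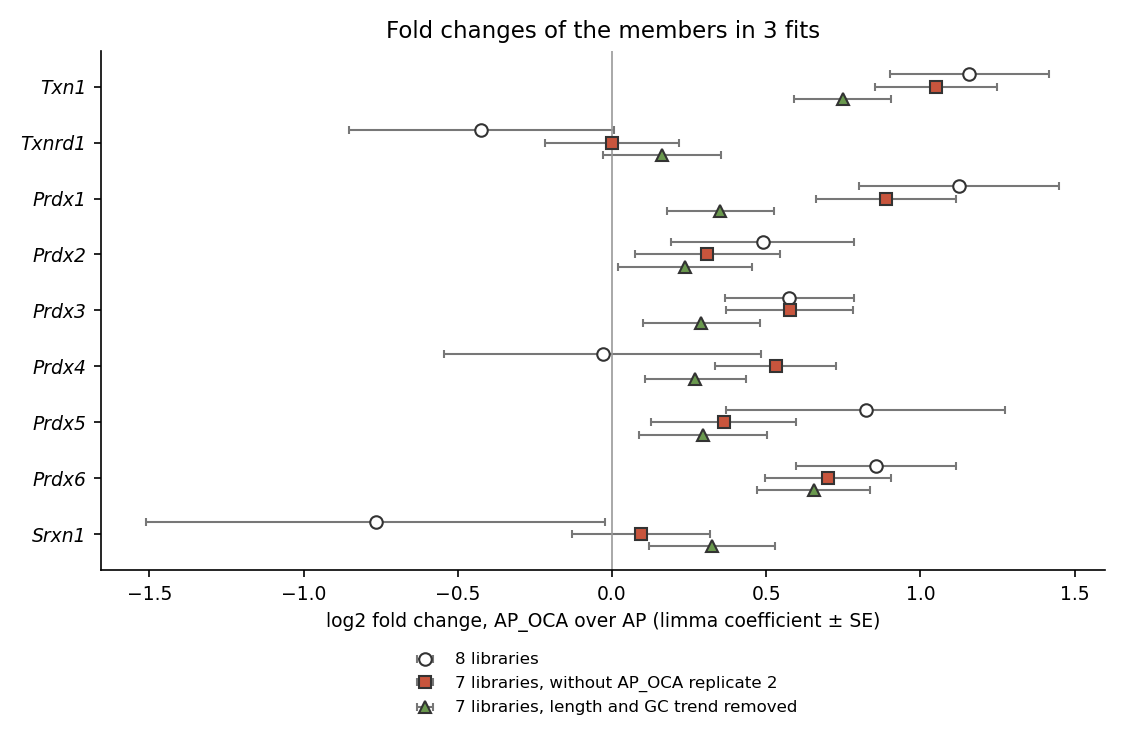
Log2 fold change of AP_OCA over AP (horizontal axis, limma coefficient with its SE as bars) for each member over 8 libraries (open circles), over 7 libraries without AP_OCA replicate 2 (squares), and over the same 7 with each library's length and GC trend removed (triangles). Txn1 lies furthest to the right among the squares at 1.05, and Txnrd1, Prdx4 and Srxn1 lie below 0 among the circles and not among the squares.

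The members did not vary as one block across libraries. Among the 7 libraries, AP_OCA replicate 4 held the highest value of 7 members (Txn1 and Prdx1 to Prdx6), and AP_OCA replicate 1 the highest of the other 2, Txnrd1 and Srxn1. AP replicate 4 held the lowest value of all 6 peroxiredoxins. In AP_OCA replicate 2, Prdx1, Prdx2, Prdx5 and Prdx6 were above the range of the other 7 libraries, whereas Txnrd1, Prdx4 and Srxn1 lay more than 2-fold below it. Likeness of pattern was measured over 7 libraries as the root mean square difference of log2(CPM + 1) values centred on each gene's mean. The closest pair of members was Prdx2 and Prdx5 (0.068), followed by Txnrd1 and Srxn1 (0.15) and by Txn1 and Prdx1 (0.15).

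The search covered 4562 genes that averaged 10 CPM or more, leaving out unnamed Riken clones, predicted genes and pseudogenes. Those nearest to Txn1 were Ndufa4, a respiratory chain subunit (0.080), and Nifk, a nucleolar protein (0.0998), where the median gene lay at 0.63. Nearest to Prdx1 were Rpl34 (0.069) and Rps27l (0.073), and to Prdx3 the ribosomal protein genes Rpl37 (0.048) and Rpl37a (0.055). Rpl23a was among the 2 nearest to Prdx6 (0.11). Prdx4 lay nearest to Rnaseh2c (0.052) and Ndufb7 (0.079). Apart from each other, Prdx2 lay nearest to Cbx6 (0.12) and Prdx5 to Rpl32 (0.098). Txnrd1 lay nearest to Pgd, an NADPH-producing enzyme of the pentose phosphate pathway (0.129), and to Cln8 (0.130), and Srxn1 to Cln8 (0.132) and the lysosomal enzyme gene Gusb (0.140).

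Fold changes followed transcript length over all genes, and the members differ in length. When tested genes were ranked by length and cut into 5 equal bins, the median log2 fold change without AP_OCA replicate 2 went from 0.22 in the shortest bin to -0.17 in the longest. Txn1 (1051 nt) and the 6 peroxiredoxins (661 to 1673 nt) are shorter than Srxn1 (2812 nt) and Txnrd1 (3325 nt). With each library's trend on length and GC content removed, Txn1 still passed at 0.75 ± 0.16 (limma adjusted p = 0.0393) and Prdx6 was little altered at 0.65 ± 0.18 (limma adjusted p = 0.0812). Prdx1 then had 0.35 ± 0.17, Prdx3 0.29 ± 0.19, Prdx4 0.27 ± 0.16, Prdx5 0.30 ± 0.21, Prdx2 0.24 ± 0.22, Srxn1 0.33 ± 0.20 and Txnrd1 0.16 ± 0.19. In that fit 1 of 9 members and 169 of 10839 genes passed, and the median was 0.30 over the members and 0.01 over all genes. Little signal was assigned to near-identical copies: 5 processed pseudogenes of Txn1, Prdx1 and Prdx2 with at least 90% identity over 200 nt or more were listed at no more than 0.732 CPM in the 7 libraries.

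**Figure D3:**
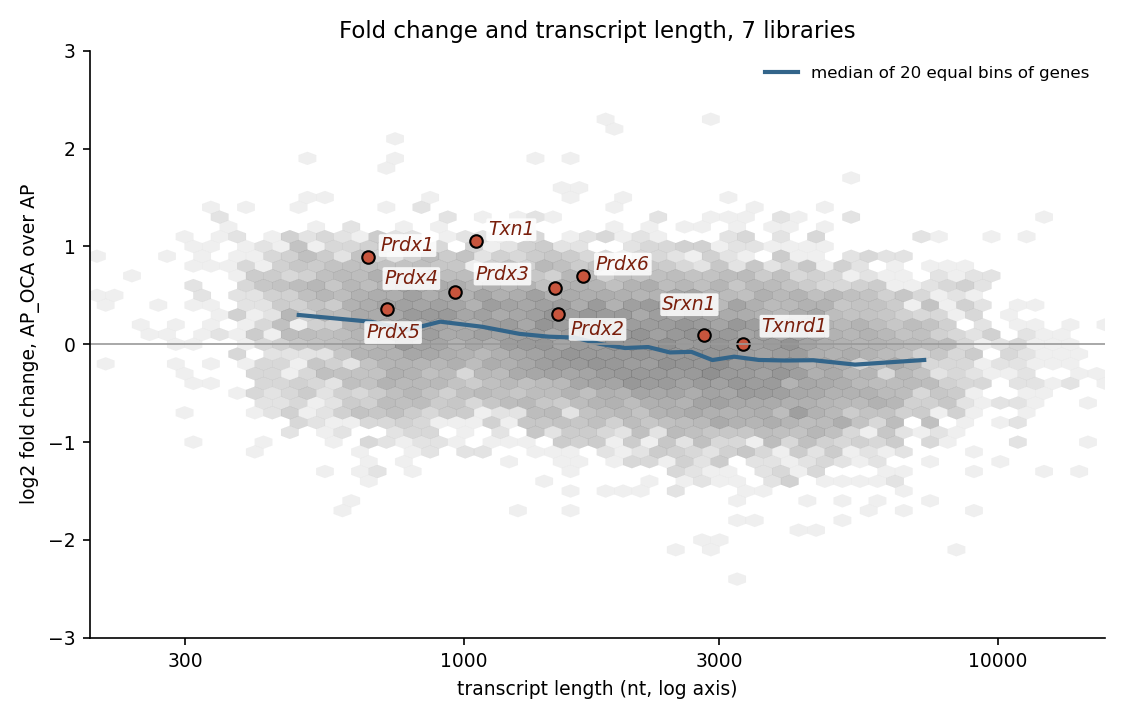
Log2 fold change of AP_OCA over AP without AP_OCA replicate 2 (vertical axis) against transcript length in nt (horizontal log axis), with all tested genes in grey, darker where more genes fall, the median of 20 equal bins of genes as a line and the members as points. Txn1 (1.05), Prdx1 (0.89) and Prdx6 (0.70) lie furthest above the line, which falls from short to long transcripts.

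Txnip and Map3k5, whose products bind thioredoxin, fell in AP_OCA. Txnip, which encodes the thioredoxin-interacting protein that binds and inhibits thioredoxin, was at 868, 904, 952 and 868 CPM in AP and at 661, 426 and 357 CPM in AP_OCA replicates 1, 3 and 4, with 360 CPM in replicate 2. Each AP_OCA library lay below each AP library. Txnip fell by 0.95 ± 0.20 on the log2 scale without AP_OCA replicate 2 (limma adjusted p = 0.0359) and had -1.04 ± 0.28 over 8 libraries (limma adjusted p = 0.260). Map3k5, the kinase ASK1 that reduced thioredoxin holds inactive, was at 142, 168, 155 and 308 CPM in AP and at 70.3, 87.3 and 62.0 CPM in AP_OCA replicates 1, 3 and 4, with 16.5 CPM in replicate 2. It fell by 1.33 ± 0.25 (limma adjusted p = 0.0271), and had -1.85 ± 0.51 over 8 libraries (limma adjusted p = 0.260). Removing the trend on length and GC content left both called (limma adjusted p = 0.0391 each). Leaving out a further library kept the call of Txnip only without AP_OCA replicate 1 or 4, and that of Map3k5 only without AP_OCA replicate 1 (limma adjusted p up to 0.108 and 0.0927 otherwise).

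In the list of thioredoxin partners and relatives, 2 of 22 tested genes fell, 0 rose and 20 did not pass. Of all tested genes 1.59% fell and 0.854% rose. The median log2 fold change of the list was 0.24. Sesn1, a sestrin, was at 5.58 to 10.1 CPM in AP, at 27.1, 10.96 and 16.8 CPM in AP_OCA replicates 1, 3 and 4, and at 82.5 CPM in replicate 2 (log2 fold change 1.13 ± 0.29 without that library, limma adjusted p = 0.0530). Of 10 tested superoxide and peroxide enzymes none passed, and their median was 0.37 (0.36 with the length and GC trend removed). Superoxide dismutase Sod1 had 0.69 ± 0.21, and the glutathione peroxidases Gpx4 and Gpx1 had 0.67 ± 0.22 and 0.53 ± 0.18 (limma adjusted p = 0.0756, 0.0921 and 0.0992). For these 3 genes each AP_OCA library lay above each AP library, replicate 2 included, as for 6.75% of all tested genes. Sod3, the extracellular superoxide dismutase, lay the other way at -0.83 ± 0.29 (limma adjusted p = 0.104), from 2.23 to 3.71 CPM in AP and 0.421 to 1.87 CPM in AP_OCA replicates 1, 3 and 4, with 12.7 CPM in replicate 2. It was named after its values were seen.

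**Figure D4:**
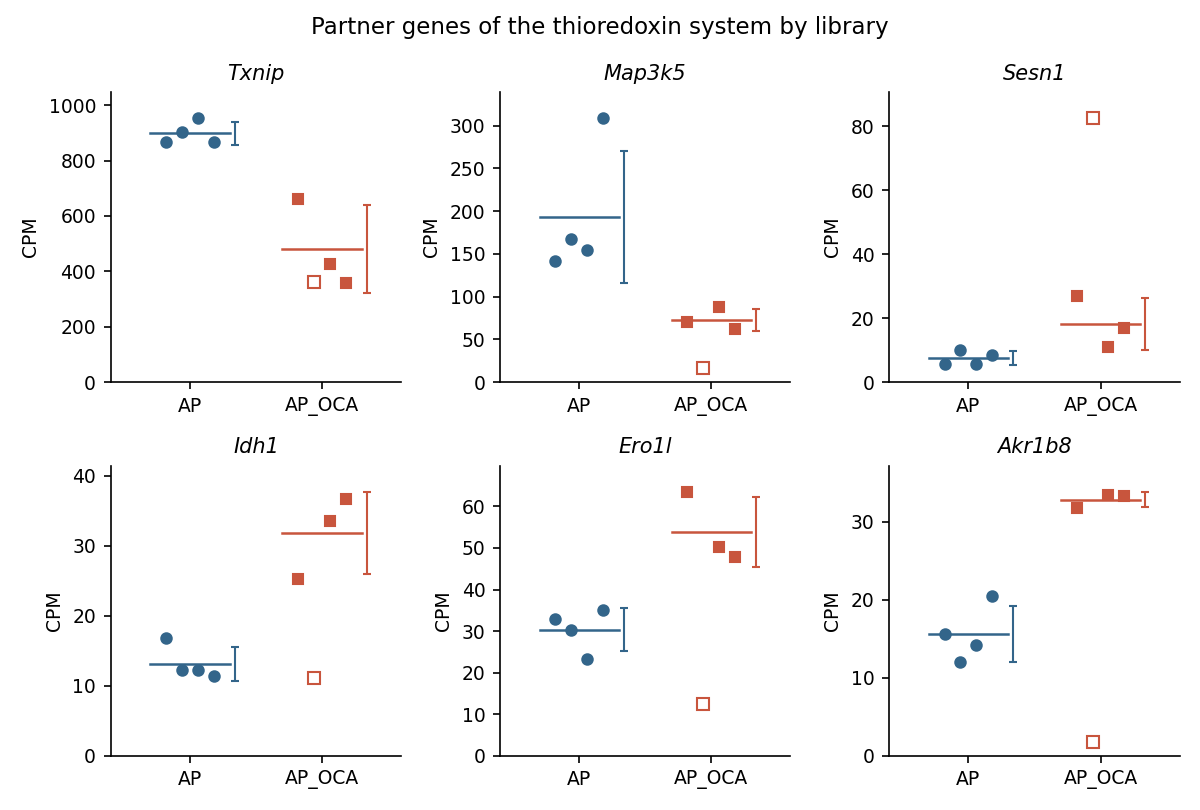
Level in CPM (vertical axis, from 0) of 6 genes that act around the thioredoxin system, drawn as in the plot of the members, with circles for AP, squares for AP_OCA and an open square for AP_OCA replicate 2. Lines are means and bars SDs over AP (n = 4) and AP_OCA without replicate 2 (n = 3). Txnip and Map3k5 are lower in each AP_OCA library than in each AP library, and Idh1, Ero1l and Akr1b8 are higher in the 3 filled squares but not in the open one.

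The NRF2 regulators and targets are a group to which Txnrd1 and Srxn1 also belong. In this list 1 of 18 tested genes rose and 0 fell, with a median of 0.11. The shares over all tested genes were 0.854% and 1.59%. Akr1b8, an aldo-keto reductase, rose by 1.06 ± 0.20 on the log2 scale (limma adjusted p = 0.0271). It stood at 15.5 ± 3.59 CPM over the AP libraries (SD, n = 4) and at 32.8 ± 0.986 CPM over AP_OCA replicates 1, 3 and 4 (SD, n = 3), while replicate 2 was at 1.79 CPM. With that library the log2 fold change of Akr1b8 was 0.16 ± 0.76. Leaving out AP_OCA replicate 3 or any 1 AP library from the 7 ended its call (limma adjusted p up to 0.0898). Keap1, the repressor of NRF2, had -0.60 ± 0.18 and Esd 0.60 ± 0.18, and neither passed (limma adjusted p = 0.0717 and 0.0703). With the length and GC trend removed they had -0.21 and 0.23. Gclc and Mafg, also of this list, had -0.83 ± 0.26 and -0.57 ± 0.19 without passing (limma adjusted p = 0.0791 and 0.0985). Both were named after their values were seen. Of the 18 fold changes 11 were above 0.

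Of 16 tested genes linked to NADPH supply, cytosolic and mitochondrial, 1 rose and 0 fell. Over all tested genes, 0.854% rose and 1.59% fell. The list had a median of 0.02, and 0.089 with the length and GC trend removed. Idh1, the cytosolic NADP-dependent isocitrate dehydrogenase, rose by 1.21 ± 0.20 on the log2 scale (limma adjusted p = 0.0241). Its level was 13.2 ± 2.43 CPM in AP and 31.9 ± 5.86 CPM in the 3 AP_OCA libraries, with 11.1 CPM in replicate 2, and the call was lost without AP_OCA replicate 3 or AP replicate 2, 3 or 4 (limma adjusted p up to 0.0849). Taldo1 of the pentose phosphate pathway had 0.52 ± 0.16 and the mitochondrial folate enzyme gene Aldh1l2 had -0.92 ± 0.25, without passing (limma adjusted p = 0.0796 and 0.0576).

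Among 11 ER oxidative folding partners of Prdx4 the median was 0.07, and 0.0032 with the length and GC trend removed. Beside 0.854% and 1.59% of all tested genes, 2 of these rose and 0 fell. They were the ER oxidase gene Ero1l (0.81 ± 0.19, limma adjusted p = 0.0464), whose enzyme releases the peroxide that Prdx4 uses, and Pdia3 (0.95 ± 0.23, limma adjusted p = 0.0486), and Pdia6 had 0.58 ± 0.17 (limma adjusted p = 0.0675). Ero1l stood at 12.4 CPM in AP_OCA replicate 2 against 23.4 to 35.1 in AP, and had 0.31 ± 0.46 over 8 libraries. P4hb, named after its values were seen, lay the other way at -0.40 ± 0.20 (limma adjusted p = 0.214). Each AP_OCA library lay below each AP library for it, replicate 2 included, as for 8.57% of all tested genes. Of the 11 fold changes 6 were above 0. Of 14 genes for selenoproteins and their synthesis 1 rose and 0 fell, with a median of 0.30, namely Selenok (0.79 ± 0.19, limma adjusted p = 0.0475), while Selenot had 0.67 ± 0.21 and Selenof 0.50 ± 0.16 (0.37 and 0.090 with the length and GC trend removed). With the length and GC trend removed Ero1l and Selenok no longer passed (limma adjusted p = 0.0770 and 0.0904), whereas Akr1b8, Idh1 and Pdia3 did. When 1 further library was left out, Pdia3 was called in 0 of 7 fits (limma adjusted p from 0.0596), Ero1l in 1, without AP_OCA replicate 4, and Selenok in 1, without AP_OCA replicate 1. All 3 also lost the call with a pseudocount of 0.1 CPM (limma adjusted p from 0.0531 to 0.0557). With no filter on low values, or with limma's trend and robust moderation both off, none of the 7 called pathway genes passed.

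Without AP_OCA replicate 2, the summed endothelial markers, led by Plvap and Eng, came to 111 to 142 CPM in AP and 46.3 to 98.0 in AP_OCA. The 10 stellate and fibroblast markers, led by Col3a1 and Dcn, came to 196 to 257 CPM in AP and 123 to 195 in AP_OCA, and the 8 ductal markers, led by Krt19 and Muc1, to 337 to 411 and 445 to 527. Of the markers tested, Eng (1 of 10 endothelial), Col1a1 (1 of 10 stellate and fibroblast) and the neutrophil gene Csf3r (1 of 7) fell, and none rose. Over all tested genes, 1.59% fell and 0.854% rose. With the length and GC trend removed Csf3r stayed called, Eng and Col1a1 did not (limma adjusted p = 0.0822 and 0.0750), and the macrophage gene Cd68 passed (-1.15, limma adjusted p = 0.04999). Sums for macrophage and myeloid markers (74.9 to 153 and 65.1 to 88.6), neutrophil markers led by S100a9 and S100a8 (36.0 to 69.99 and 19.9 to 76.4) and lymphocyte markers (3.80 to 38.2 and 2.13 to 4.48) overlapped. So did those for red cell markers, led by Hbb-bs and Hba-a1 (11.1 to 29.1 and 13.03 to 46.2). The sums for adipocyte and mesothelial markers, led by Krt18 and Cfd, overlapped too (2260 to 2967 and 2702 to 2983). Of those 10 genes 7 averaged under 1 CPM. Krt18 is not specific to adipocytes or mesothelium, so that sum does not measure these cell types. Cd3e, Cd3g, Cd2 and Slc4a1 were listed at 0 in all 7 libraries. The part of these cells in the values of Txn1 and its partners was not tested.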

How the data were processed

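RNA sequencing of 8 libraries, 4 AP and 4 AP_OCA, was analysed, with groups and replicate numbers taken from the sample titles. The authors deposited log2 values: each library bottoms out at the log2 of 0.01 and all share 1 maximum, as after quantile normalisation. The submitters' processing notes name mm10, and per the labels' protocols total RNA went through a SMARTER kit. An aligner, a counter and an annotation are not given in the sources used here.

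From the linear values 0.01 was subtracted, and libraries were set to a common total of 1000000 (CPM). Testing took genes averaging 1 CPM or more, on log2(CPM + 1), with limma 3.58.1 (R 4.3.3), trend and robust moderation, and Benjamini-Hochberg adjustment over all tested genes at 0.05. It was run over 8 libraries and again without AP_OCA replicate 2. Lengths, GC content and coordinates came from GENCODE M21, near-identical copies from blastn 2.17.0, and promoters from RefSeq (GRCm38.p6). 

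The members and gene lists were chosen with earlier results of these data known. Named genes are the 9 members, the called genes of each list or else its 3 lowest p (at most 4), the 2 nearest patterns of each member, and the 2 most abundant genes of each marker list. Some genes that this rule or a marker list would name are not reported here. Genes of lists were called in the fit without AP_OCA replicate 2. Alternatives were other pseudocounts (0.1 and 5), no filter, a minimum of 5 CPM, quality weights, the replicate number as a block and median centring. Another switched off trend and robust moderation together. Further ones removed the length and GC trend (splines with 4 degrees of freedom on each) or left out each library in turn.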

Additional observations from a re-analysis of the deposited data

Results flagged for a closer look

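In groups of 4 libraries, a value was listed here when the gap between the highest or lowest library and its neighbour, as a share of the group's range, passed Dixon's 95% critical value. Chance lists about 1 in 20 groups, and 8 came up among 54 groups of members and list genes, 7 of them in AP and 1 through AP_OCA replicate 2.

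AP replicate 4 was the outlying library for 3 members. Txn1 was at 67.1 CPM there against 63.0 to 63.7 in the other AP libraries, a small gap in a tight group. Prdx6 was at 17.4 CPM against 26.9 to 28.6, and Srxn1 at 147 CPM against 86.4 to 95.9. Map3k5 was at 308 CPM in the same library against 142 to 168. Without AP replicate 4 and AP_OCA replicate 2, Prdx6 had a log2 fold change of 0.54 and Srxn1 of 0.26.

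In AP replicate 3, Esd was at 28.8 CPM against 32.0 to 32.6 and Aldh1l2 at 18.5 CPM against 30.1 to 31.7. In AP replicate 1, Idh1 was at 16.8 CPM against 11.5 to 12.2. In AP_OCA replicate 2, Akr1b8 was at 1.79 CPM against 31.7 to 33.5 in the other AP_OCA libraries.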

How the results depend on the processing

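Over 8 libraries, quality weights per library, with a weight of 0.063 for AP_OCA replicate 2, called 1052 genes and 3 members and gave Prdx4 0.48. Leaving out 1 library gave 0 to 266 genes and 0 to 1 members, the upper values without AP_OCA replicate 2, and log2 fold changes from -0.34 to 0.53 for Prdx4, -1.20 to 0.093 for Srxn1 and -0.75 to 0.00063 for Txnrd1. The other settings called 0 genes.

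Without AP_OCA replicate 2, 266 genes and 1 member passed. The count was 156 genes with a pseudocount of 0.1 CPM, and 0 genes and 0 members with no filter. With trend and robust moderation both off it was 13 genes and 0 members, and with quality weights 1675 genes and 5 members. Removing the length and GC trend gave 169 genes (113 of them among the 266). A pseudocount of 5 CPM gave 386 genes and 2 members, and a minimum of 5 CPM 319 genes and 2 members. Leaving out 1 more library gave 7 to 973 genes and 0 to 3 members: 973 and 3 without AP_OCA replicate 1, 119 and 1 without AP_OCA replicate 4, 14 and 0 without AP_OCA replicate 3, and 7 to 12 genes and 0 members without any 1 AP library. Srxn1 had -0.031 with quality weights and Txnrd1 -0.15, and Txnrd1 had -0.0071 with median centring. With 1 library left out, Srxn1 ran from -0.13 to 0.26 and Txnrd1 from -0.28 to 0.16. Of 144 values of single members, 120 kept direction and call, 8 changed sign, 9 gained a call and 7 lost one. For the 7 called partner genes 59 of 112 values lost the call and 0 changed sign. The causes were not tested.

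Without AP_OCA replicate 2, deviations of same-numbered libraries from their group means correlated at -0.0553, 0.0528 and -0.0715. Those of different numbers ran from -0.163 to 0.117. So no pairing by replicate number showed, but so few libraries cannot exclude it. With the replicate block, which leaves AP replicate 2 without a partner, 559 genes and 2 members passed (Txn1 and Prdx1), Selenok lost its call (limma adjusted p = 0.0624), and Txnrd1 had -0.040. Read totals are unknown here, so depth sets no stated limit on single values.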
